A study of Mus musculus with 6 samples.

Results

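The genes described here are Gas6, Pros1, Axl, Mertk and Tyro3, the ligands and receptors of the TAM system. They were taken by gene symbol from a table of 56980 genes, and all 5 were found, each under 1 identifier. They were followed in 6 single-nucleus RNA libraries of adipose depots, all from C57BL/6J females. Inguinal subcutaneous fat (SAT) was taken at the age of 2 or 24 months and gonadal visceral fat (VAT) at 24 months only, which gives 3 groups of 2 libraries. The study took both depots from 2 mice of each age, so the SAT and VAT libraries at 24 months share their mice and the depots are not compared between independent animals. Which libraries share a mouse is not given, and p-values measure the spread between these libraries. The mice carried no labelled genetic change or treatment. The older age is 24 months in the sample labels and 26 months in the series design. VAT at 2 months was not used here.

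Gas6 (growth arrest-specific 6) and Pros1 (protein S) are secreted proteins that are carboxylated in a vitamin K-dependent step and bind phosphatidylserine, the lipid that dying cells expose. Through its other end Gas6 binds the receptor tyrosine kinases Tyro3, Axl and Mertk, while protein S is a ligand of Tyro3 and Mertk, so that a phagocyte can recognise and engulf the dying cell while its inflammatory signalling is restrained. Mertk is best known in macrophages, Axl in macrophages, dendritic cells and mesenchymal cells, and Tyro3 in the nervous system. Protein S also circulates as an anticoagulant.

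In GRCm39, the build used by the study, Gas6 (ENSMUSG00000031451) lies at chr8:13515371-13544824 on the minus strand and Pros1 (ENSMUSG00000022912) at chr16:62674275-62749710 on the plus strand. Mertk (ENSMUSG00000014361) spans chr2:128540729-128645080 and Tyro3 (ENSMUSG00000027298) spans chr2:119628214-119648738, both on the plus strand. Axl (ENSMUSG00000002602) lies at chr7:25456535-25488329 on the minus strand. The 250 bases before the outermost annotated start (GENCODE) are shown for Gas6 and Mertk, because these were the genes that differed with age in adipocytes, with matches on either strand to the CCAAT box (CCAAT) and the GC box (GGGCGG) in capitals. The Gas6 window is chr8:13544825-13545074 on the minus strand, and the Mertk window is chr2:128540479-128540728 on the plus strand.
Gas6: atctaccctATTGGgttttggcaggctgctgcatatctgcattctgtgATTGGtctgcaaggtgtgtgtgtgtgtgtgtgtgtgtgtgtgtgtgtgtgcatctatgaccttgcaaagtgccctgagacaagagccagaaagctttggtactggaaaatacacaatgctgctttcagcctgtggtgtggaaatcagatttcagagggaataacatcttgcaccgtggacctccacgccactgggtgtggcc
Mertk: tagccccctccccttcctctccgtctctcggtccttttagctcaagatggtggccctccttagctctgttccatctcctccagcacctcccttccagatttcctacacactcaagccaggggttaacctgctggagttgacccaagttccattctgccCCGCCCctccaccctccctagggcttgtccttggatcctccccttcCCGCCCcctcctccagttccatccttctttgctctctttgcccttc
The Gas6 window held 2 CCAAT matches and no GC box, and the Mertk window held 2 GC box matches and no CCAAT. Of 21603 windows of this length before protein-coding genes, 35.9% held CCAAT and 30.2% held GGGCGG on either strand. Neither window held TATAAA or CACGTG. These matches describe the letters of the windows only.

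The 6 libraries held 8061862 to 16226690 UMIs (unique molecular identifiers, the count of captured RNA molecules), and 27074 of 50859 barcodes passed the filters as nuclei, 2490 to 5776 per library with a median of 1380 to 1878 UMIs. At most 0.769% of a library's barcodes recurred in another. The labels call the samples adipocytes, but adipocytes named from their markers made up only 2.68% to 61.2% of the nuclei and immune nuclei 7.37% to 76.0%. VAT library 2 stood apart: 2.68% of its nuclei were adipocytes, 25.9% were mesothelial, and it held nuclei led by steroidogenic and by oviduct secretory genes.

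Over all nuclei kept, Gas6 had 16086 UMIs, Mertk 4974, Axl 3724, Pros1 2267 and Tyro3 461. Levels are given as CPM, the UMIs of a gene scaled to a common total of UMIs over all nuclei of a type in a library. A type was given a level only in libraries with at least 20 of its nuclei. Because the types came from clustering these nuclei, the order of types is a description and was not tested. Levels were compared between types and libraries for 1 gene at a time, and not between genes.

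**Figure D1:**
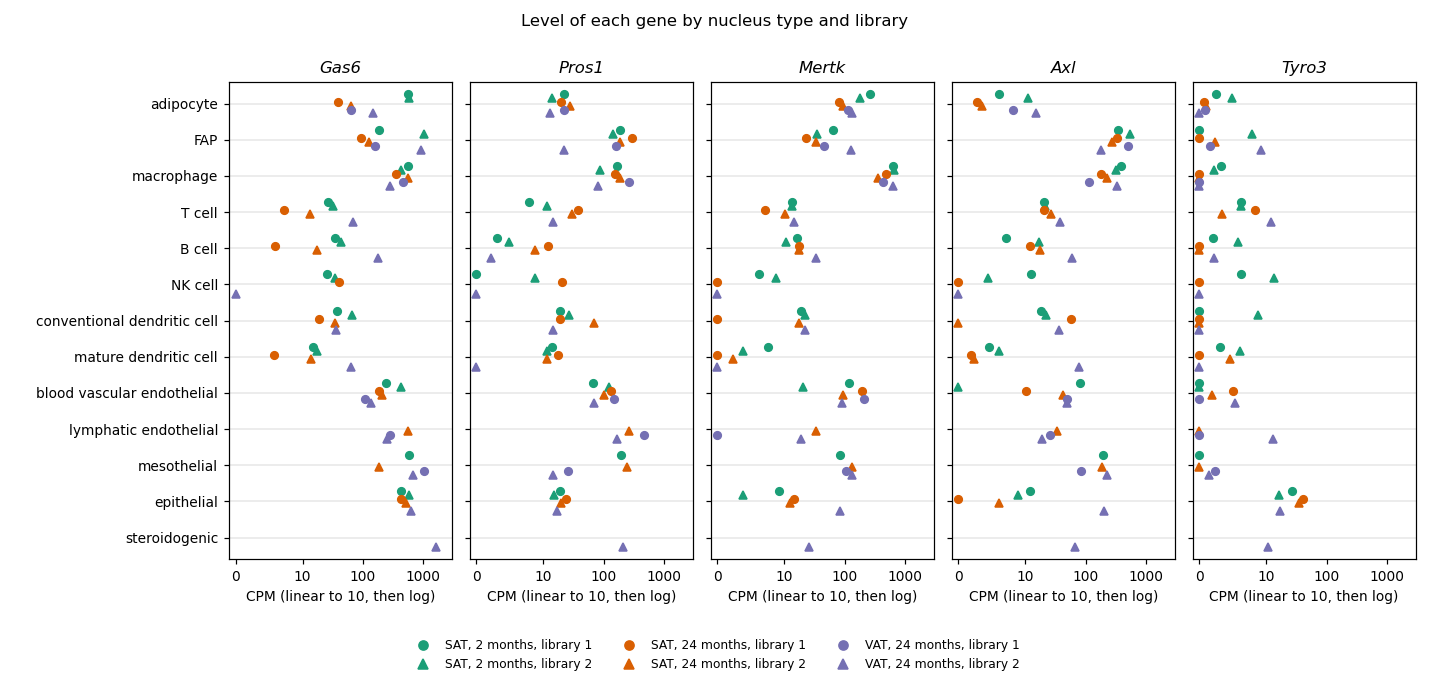
CPM (x axis, linear to 10 and logarithmic above) of each gene in 13 nucleus types (y axis), 1 point per library. Mertk lies highest in macrophages (357 to 655 CPM) and Axl highest in FAPs and macrophages, while the SAT points of Gas6 in adipocytes split by age, 566 and 579 against 39.4 and 64.3 CPM. The SAT points of mesothelial nuclei are of nuclei that held none of that list's markers.

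Among the ligands, Gas6 had its highest level of any whole named type in the steroidogenic nuclei of VAT library 2, at 1659 CPM. Parts of a type, such as resident macrophages, are given below. Mesothelial nuclei, the lining cells of the abdominal cavity, had 1034 and 678 CPM in VAT. The SAT nuclei clustered with them (23 and 26 in 2 libraries) held none of the 6 mesothelial markers and are left out of the order of types. Of the other types with at least 4 libraries, the median was 526 CPM in epithelial nuclei (423 to 591 in SAT and 618 in VAT library 2) and 445 CPM in macrophages (283 to 557). Blood vascular endothelial nuclei had a median of 193 CPM (108 to 426), fibro-adipogenic progenitors (FAPs, the fibroblasts from which adipocytes form) 171 CPM (92.3 to 1029) and adipocytes 107 CPM (39.4 to 579). Each of these types overlapped its neighbour in this order. The nuclei of VAT library 2 named epithelial go against that name: the 7 epithelial markers summed to 1175 CPM in them against 3434 to 4719 CPM in SAT, beside 2426 CPM of the steroidogenic and 1534 CPM of the mesothelial list. T cells, which should hold little Gas6, had a median of 26.8 CPM (7.17 to 69.6), at which free RNA in the suspension cannot be told apart from expression.

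Pros1 had a median of 264 CPM in lymphatic endothelial nuclei of 3 libraries (166 to 468). It was 173 CPM in FAPs (22.1 to 288), 160 CPM in macrophages (80.7 to 267) and 111 CPM in blood vascular endothelial nuclei (66.4 to 148), and neighbours in this order overlapped. Adipocytes were lower, with a median of 20.7 CPM (12.6 to 27.0), below every blood vascular value. T cells had a median of 14.5 CPM (7.84 to 37.0), a range that covers that of adipocytes. At such levels free RNA cannot be told apart from expression. The steroidogenic nuclei of VAT library 2 held Pros1 at 206 CPM.

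Among the receptors, Mertk was led by macrophages, which did not overlap the next type. Macrophages had a median of 552 CPM (357 to 655), adipocytes 123 CPM (79.5 to 261) and blood vascular endothelial nuclei 106 CPM (20.3 to 212), beside 104 and 132 CPM in the mesothelial nuclei of VAT. FAPs followed at 40.2 CPM (23.1 to 129), overlapping the blood vascular range, and T cells lay at 7.17 to 14.5 CPM. Adipocyte Mertk was above the T cell level in every library that had both.

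Axl was highest in FAPs, with a median of 340 CPM (182 to 534), then in macrophages with 272 CPM (115 to 389), which overlapped. The mesothelial nuclei of VAT had 83.4 and 229 CPM, and blood vascular endothelial nuclei followed at 45.0 CPM (0 to 79.6). Adipocytes had only 7.11 CPM (2.81 to 15.1), under the T cell median of 21.6 CPM, so the 2 receptors with a clear level in adipose tissue split between types: adipocytes held Mertk and little Axl, and FAPs held Axl and less Mertk. Within FAPs, the Dpp4 progenitors, a subset of early progenitors named from Dpp4, Pi16 and related markers, had 606 and 730 CPM of Axl in SAT at 2 months, 709 CPM in SAT library 2 at 24 months, and 1022 and 237 CPM in VAT. FAPs of neither named subset had 138 to 268 CPM, and the preadipocytes named from Col15a1 and related markers had 120, 174 and 342 CPM in the 3 libraries with enough of them. The Dpp4 nuclei lay above both in each library where they could be compared. In VAT library 2 the markers of the nuclei named Dpp4 progenitors went against that name. Their sub-clusters held 2432 and 2746 CPM of the mesothelial list there, against 189 and 235 CPM in VAT library 1. The FAP list was at 7876 and 3880 CPM against 23262 and 14100 CPM. Mertk was at 0 to 45.1 CPM in the Dpp4 nuclei and 35.7 to 149 CPM in FAPs of neither subset in the same libraries. Those FAPs included a sub-cluster led by adipocyte genes (Cidec, Adrb3) and one led by mesothelial genes (Upk1b, Upk3b). Their largest sub-cluster, led by neither, had 114, 96.0, 49.1, 52.6 and 230 CPM of Mertk and 220, 160, 196, 201 and 168 CPM of Axl in the 5 libraries with Dpp4 nuclei. The Col15a1 preadipocytes had only 1 to 3 Mertk UMIs per library.

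Tyro3 was rare. Its levels in epithelial nuclei were 26.5 and 16.4 CPM in SAT at 2 months, 40.3 and 34.6 CPM in SAT at 24 months and 17.1 CPM in the nuclei of VAT library 2 that go by that name against their markers. A pair of clusters in the SAT libraries, left unnamed because a marker of another list, Kit, was among their leading genes (Gpc6 led one and Wfdc18 the other), held 14.1 to 124 CPM and 27.8 to 82.5 CPM. Macrophages had 2 UMIs of Tyro3 in all, 1 in each SAT library at 2 months, and with looser filters the mean of those libraries was 5.35 CPM in place of 2.73 CPM. FAPs and adipocytes reached at most 9.20 and 4.95 CPM, under the highest T cell value of 11.8 CPM.

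The share of a gene's UMIs that each type held followed both its level and the makeup of the library. Adipocytes held 49.0% of the Mertk UMIs in SAT library 1 at 2 months (exact 95% interval 45.6 to 52.3, counting error only), 24.1% in library 2 (20.8 to 27.7), 41.5% and 53.1% in SAT at 24 months, and 69.4% and 5.11% in VAT. Macrophages held 12.3% to 49.9% of them with 3.01% to 5.29% of the nuclei. FAPs held 77.2% of Axl in VAT library 1 and 6.90% in VAT library 2, where mesothelial nuclei held 54.1%. Steroidogenic nuclei, 6.06% of VAT library 2, held 40.5% of its Pros1 and 20.5% of its Gas6 UMIs. Unnamed or mixed nuclei held 65.7% and 45.2% of the Gas6 UMIs of SAT at 24 months, against 23.1% and 27.9% at 2 months, so a total over all nuclei does not follow any single type.

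**Figure D2:**
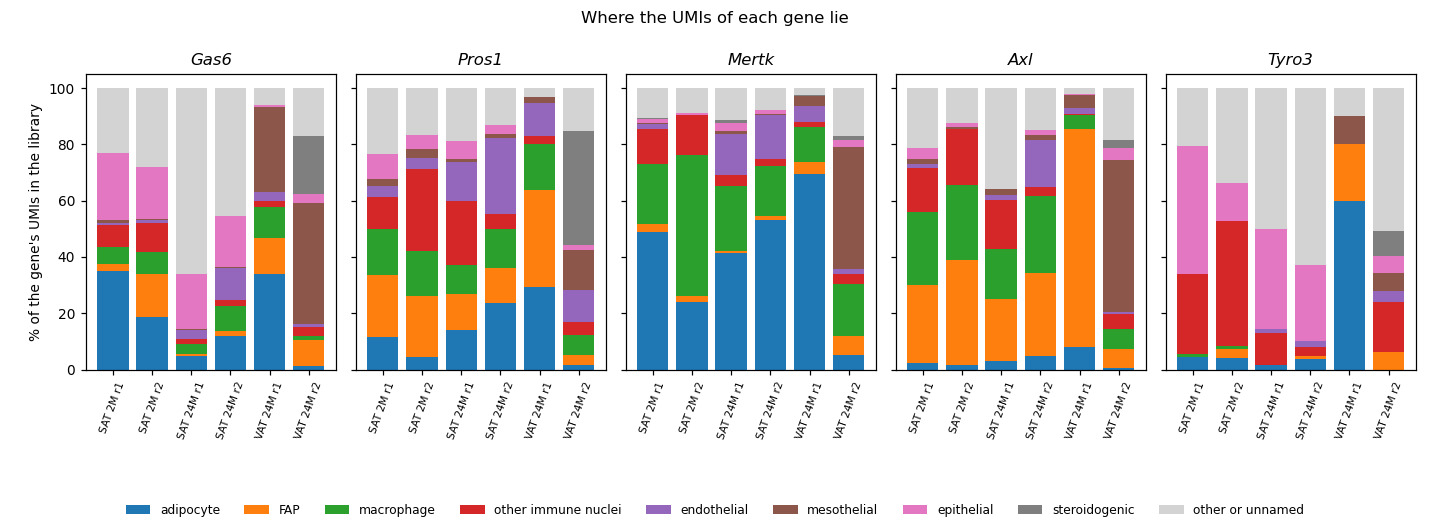
Share (y axis, % of the UMIs of a gene in a library) held by each nucleus type, 1 bar per library (x axis) and 1 panel per gene. The adipocyte part of Gas6 is 34.9% and 18.6% in SAT at 2 months against 4.70% and 11.9% at 24 months. In VAT library 2, mesothelial nuclei hold most of the Axl UMIs. Steroidogenic nuclei hold 137 of its 338 Pros1 UMIs but 7 of its 79 Tyro3 UMIs.

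The first comparison asked what differed with age in SAT. In adipocytes, Gas6 fell about 10-fold. It was at 566 and 579 CPM (573 ± 9.17, mean ± SD, n = 2) at 2 months and at 39.4 and 64.3 CPM (51.8 ± 17.6, n = 2) at 24 months. All values at 2 months, from 936 and 468 UMIs, lay above all values at 24 months, from 56 and 340 UMIs, where 60.1% of all genes tested did not overlap between the ages. In edgeR's quasi-likelihood test on summed counts, with p-values adjusted over all 12597 genes tested, the log2 fold change was -3.29 ± 0.37 (SE), 9.81-fold lower, adjusted p = 0.000348. Mertk, the receptor, fell too, from 261 and 181 CPM (221 ± 57.1, n = 2) to 79.5 and 94.1 CPM (86.8 ± 10.4, n = 2). Its log2 fold change was -1.21 ± 0.26, 2.31-fold lower, edgeR adjusted p = 0.0112. Without SAT library 1 of 2 months, Mertk was at -0.86 (adjusted p = 0.168), and without SAT library 1 of 24 months at -1.05 (adjusted p = 0.0647).

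Of the 4 genes tested in adipocytes, 2 were called, both lower, where 14.0% of all genes were called and 7.58% were called lower. DESeq2 also called 2, at a share of 10.4% of all genes. In the comparisons below where DESeq2 called none of the 5 genes, it called 0.0% to 1.75% of all genes. The other receptor tested, Axl, was at 6.05 and 11.1 CPM at 2 months and 2.81 and 3.59 CPM at 24 months, from 4 to 19 UMIs per library (log2 fold change -1.16 ± 0.66, edgeR adjusted p = 0.274). The other ligand, Pros1, was at 21.8 and 13.6 CPM against 19.7 and 27.0 CPM, which overlapped (log2 fold change 0.52 ± 0.41, edgeR adjusted p = 0.442). Tyro3 had at most 6 UMIs in a library's adipocytes and did not pass the filter on low counts. The median log2 fold change of the 4 was -1.18, and that of all genes tested was 0.00 to 2 decimals.

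The difference was also seen in the share of nuclei with a UMI. When each nucleus was thinned to 1000 UMIs, 31.8% and 30.6% of adipocytes had at least 1 Gas6 UMI at 2 months, against 4.08% and 5.75% at 24 months (45.4%, 39.3%, 7.63% and 12.7% before thinning). For Mertk the thinned shares were 20.2% and 14.3% against 6.72% and 7.02%. T cells of the same libraries, with median depths of 1246 to 1445 UMIs against 1577 to 2077 in adipocytes, had a thinned Gas6 share of 2.67% and 3.04% at 2 months and 0.619% and 0.899% at 24 months. Adipocytes were above T cells in all 4 libraries. The T cell share was itself higher at 2 months.

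Gas6 was lower at 24 months in every part of the adipocytes that could be compared. In each of 8 sub-clusters with nuclei of both ages, the 24-month values (25.8 to 95.7 CPM over all) lay below the 2-month values (312 to 1244 CPM), with ratios of the means from 7.39 to 23.2. In 2 of the 8 only 1 library gave a value at 2 months, from 58 and 34 nuclei, and these had the highest ratios, 21.3 and 23.2. For Mertk the ages did not overlap in 7 of the 8, with ratios from 1.80 to 5.31. The adipocytes with high levels of fatty acid synthesis genes were among them. Their Gas6 was 358 and 312 CPM at 2 months and 35.1 and 55.5 CPM at 24 months, and their Mertk had a mean of 256 CPM at 2 months and 48.2 CPM at 24 months, given without a test.

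Markers of other cells moved in the same nuclei. Of 14 marker lists of other cells, 10 summed to lower values at 24 months without overlap and 0 to higher ones. The summed level of the 8 immune markers in adipocytes was 562 and 998 CPM at 2 months and 180 and 154 CPM at 24 months, with none of the 8 at 0 in any of these libraries. Ptprc, which marks all leukocytes, was at 131 and 209 CPM against 35.9 and 21.2 CPM. The T cell list was at 243 and 478 CPM against 55.6 and 27.6 CPM and the B cell list at 266 and 396 CPM against 71.7 and 36.5 CPM. The 8 adipocyte markers summed to 12173 and 12034 CPM against 12435 and 13137 CPM. Gas6 in T and B cells of SAT at 2 months was 26.8 to 42.9 CPM, well under the 566 and 579 CPM of adipocytes, and Gas6 in macrophages was 423 and 554 CPM, near the adipocyte level, while the 10 macrophage markers summed to 101 and 130 CPM in adipocytes against 29.5 and 97.9 CPM. Lists of other types rich in Gas6 were lower too, the mesothelial list at 14.5 and 13.6 CPM against 3.52 and 4.16 CPM and the epithelial list at 47.8 and 78.0 CPM against 28.8 and 44.8 CPM. The median share of mitochondrial UMIs per nucleus, over all nuclei of a library, was 1.72% and 0.918% at 2 months and 3.49% and 2.91% at 24 months in SAT. The part of these in the Gas6 and Mertk differences was not tested.

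**Figure D3:**
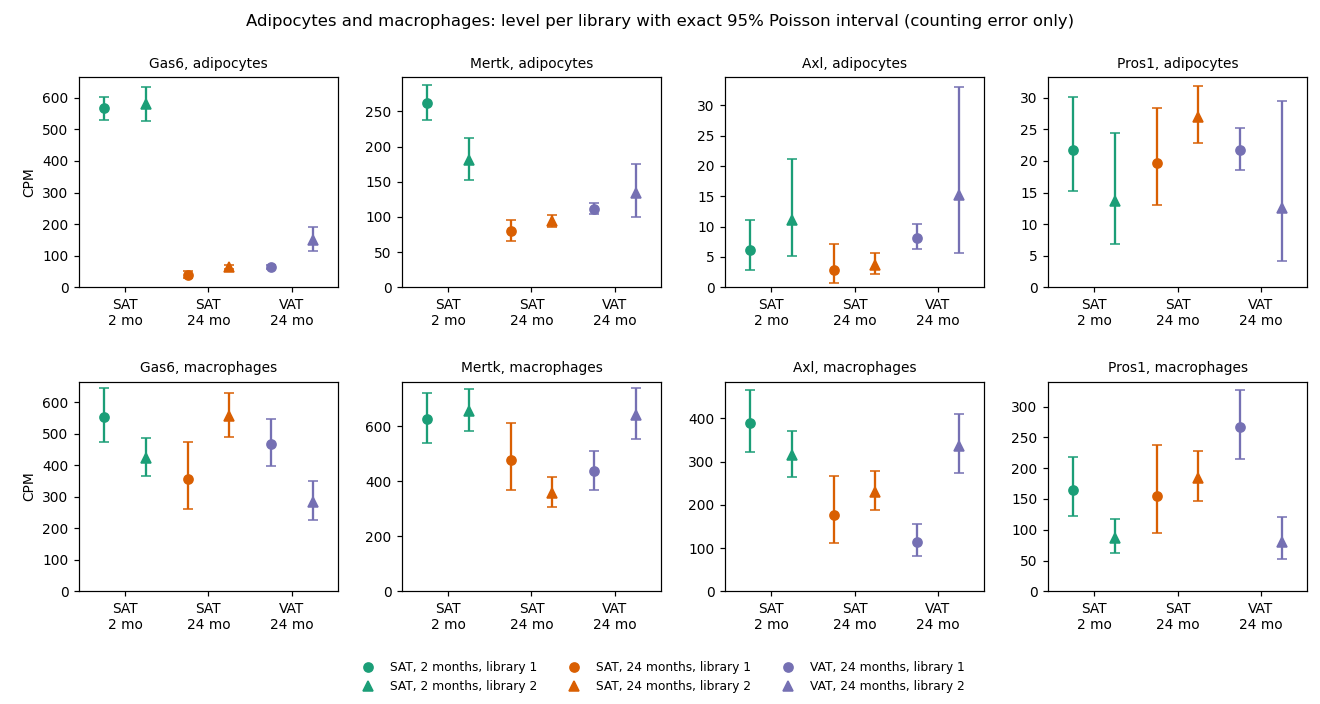
CPM (y axis) of 4 genes in adipocytes (top) and macrophages (bottom), 1 point per library with its exact 95% Poisson interval for counting error, by group (x axis). The Gas6 and Mertk points of adipocytes at 2 months lie above both SAT points at 24 months, while Gas6 in macrophages overlaps between ages.

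The fall of Gas6 was compared between types by testing the difference itself. In macrophages Gas6 was at 554 and 423 CPM at 2 months and 355 and 557 CPM at 24 months, which overlapped (log2 fold change 0.00 ± 0.42 to 2 decimals, edgeR adjusted p = 0.998). The change in adipocytes minus that in macrophages was -3.30 ± 0.48 on the log2 scale, edgeR adjusted p = 0.000182, where 3.75% of 10616 genes tested were called. Gas6 was the only one of the 4 genes called there. Mertk had a difference of -0.59 ± 0.41 (edgeR unadjusted p = 0.166), so its fall was not shown to differ between adipocytes and macrophages. Against FAPs, the difference of Gas6 was -1.33 ± 0.73 (edgeR adjusted p = 0.591), with 0 of the 4 genes called, 0 at an unadjusted p under 0.05 in edgeR, and 0.667% of 11841 genes called, and no other tool was run for it.

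In FAPs, Gas6 was at 186 and 1029 CPM at 2 months and at 92.3 and 127 CPM at 24 months. Both younger libraries lay above both older ones, but the younger libraries stood far apart from each other. The log2 fold change was -2.42 ± 0.98, edgeR adjusted p = 0.418, and it was -0.68 without SAT library 2 of 2 months. In that library the Dpp4 nuclei held 1167 CPM and FAPs of neither named subset 942 CPM. Mertk was at 62.9 and 34.4 CPM against 23.1 and 33.5 CPM, Axl at 345 and 534 CPM against 335 and 271 CPM, and Pros1 at 186 and 143 CPM against 288 and 185 CPM, and of these 3 only Pros1 overlapped, where 45.3% of all genes tested did not overlap. With looser filters Mertk overlapped too, at 67.7 and 35.6 CPM against 34.4 and 53.5 CPM. Markers of other cells differed in the same FAPs: the immune list was at 935 and 1082 CPM at 2 months and 288 and 208 CPM at 24 months, and the adipocyte list at 872 and 556 CPM against 1304 and 3556 CPM. Their part was not tested. None of the 4 genes tested was called by edgeR or DESeq2, 1 had an unadjusted p under 0.05 in edgeR, and the background was 0.0% of 8665 genes.

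Macrophages engulf dying cells through Mertk and make Gas6 themselves. With age, their Mertk was at 626 and 655 CPM against 478 and 357 CPM (log2 fold change -0.55 ± 0.39) and their Axl at 389 and 315 CPM against 178 and 230 CPM (-0.69 ± 0.46). Both had younger values above older ones, with edgeR adjusted p = 0.594 and 0.576, where 46.8% of all genes tested did not overlap. Pros1 overlapped, at 165 and 86.8 CPM against 154 and 184 CPM. Of the 4 genes, 0 were called by edgeR or DESeq2 and 0 had an unadjusted p under 0.05, at a background of 0.0258% of 7756 genes.

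Macrophage sub-clusters differed in these genes. Resident macrophages, named from Lyve1, Folr2, Mrc1 and related markers, had the highest Gas6 level: 1644 and 1708 CPM in SAT at 2 months, 1065 and 1076 CPM in SAT at 24 months, and 942 and 925 CPM in VAT. The lipid-associated macrophages, named from Gpnmb, Mmp12 and related markers, had 88.8, 67.2 and 231 CPM in the 3 libraries with enough nuclei, and the remaining macrophages 54.4 to 187 CPM. No library's resident value overlapped these. Axl was arranged the other way, at 49.4 to 191 CPM in resident macrophages against 863, 175 and 316 CPM in lipid-associated and 131 to 435 CPM in the remaining macrophages, above the resident value of the same library in every case.

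Mertk did not follow either order. In resident macrophages it was at 309 and 131 CPM at 2 months and 857 and 521 CPM at 24 months in SAT, and in the remaining macrophages at 802 and 727 CPM at 2 months and 313 and 125 CPM at 24 months. The ages did not overlap in either, as 55.6% of all genes tested in resident macrophages did not. The remaining macrophages were not fitted, and the difference between the 2 was not tested. In resident macrophages the log2 fold change with age was 1.54 ± 0.53 (edgeR, unadjusted p = 0.00761, adjusted p = 0.0829), and that of Gas6 was -0.71 ± 0.50 (edgeR adjusted p = 0.426), from 24 to 125 nuclei per SAT library. Here 0 of 4 genes were called by edgeR, 1 had an unadjusted p under 0.05, DESeq2 called 0, and 5.03% of 2344 genes were called. The resident share of macrophages was 28.6% and 17.8% at 2 months and 32.0% and 50.2% at 24 months, and the part of this makeup in the macrophage values was not tested.

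**Figure D4:**
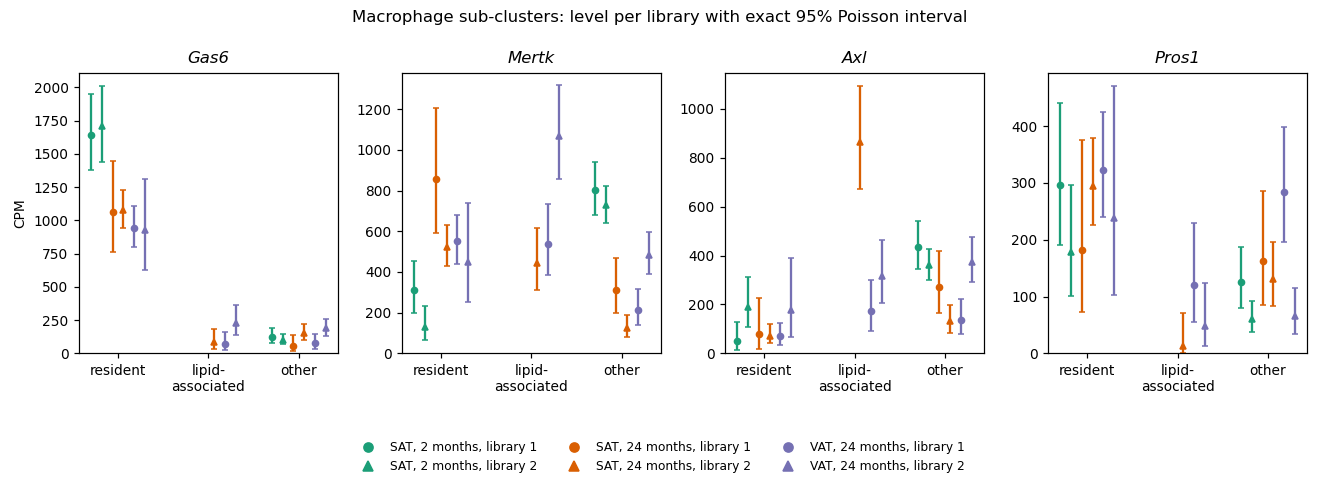
CPM (y axis) of 4 genes in resident, lipid-associated and other macrophages (x axis), 1 point per library with its exact 95% Poisson interval. Resident macrophages hold 925 to 1708 CPM of Gas6 and the others at most 231 CPM, while Mertk in resident macrophages in SAT is at 131 and 309 CPM when young and at 521 and 857 CPM when old.

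In endothelial nuclei, blood and lymphatic together, Gas6 was at 254 and 363 CPM at 2 months and 176 and 211 CPM at 24 months (log2 fold change -0.37 ± 0.50, edgeR adjusted p = 0.826), which did not overlap, as 44.1% of all genes did not. Mertk was at 122 and 25.9 CPM against 185 and 92.2 CPM, which overlapped. Here 0 of 4 genes were called by edgeR or DESeq2, with 0 at an unadjusted p under 0.05, where 0.0257% of 7787 genes were called. In epithelial nuclei, where all 5 genes passed the filter, Gas6 was at 423 and 591 CPM against 427 and 526 CPM (-0.13 ± 0.23, edgeR adjusted p = 0.858). Tyro3 had both older values above the younger (log2 fold change 0.70 ± 0.41, edgeR adjusted p = 0.437), where 46.0% of all genes did not overlap. Of the 5, 0 were called by edgeR or DESeq2 and 1, Axl (-1.49 ± 0.71, from 0 to 18 UMIs per library), had an unadjusted p under 0.05, where 4.56% of 12211 genes were called.

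Over all nuclei, Gas6 was at 273 and 247 CPM at 2 months and 226 and 249 CPM at 24 months, which overlapped (log2 fold change 0.08 ± 0.52, edgeR adjusted p = 0.969). The sign came with the TMM scaling, and with library totals alone the value was -0.13. The difference seen in adipocytes was not seen in the library totals. None of the 5 genes was called by edgeR or DESeq2 in this comparison, 0 had an unadjusted p under 0.05, and the background was 0.0% of 21729 genes. Clusters left without a name were not tested. In SAT, Gas6 in the one led by Gm10800 was at 396 to 554 CPM at 2 months and 46.4 to 50.9 CPM at 24 months. The Pcdh15 cluster had 699 to 1056 against 188 to 190 CPM, and the Ovgp1 cluster 376 to 427 against 417 to 459 CPM. The Gpc6 cluster had 693 to 717 against 1061 to 1549 CPM, and the Wfdc18 cluster 541 to 561 against 917 to 968 CPM. Mixed nuclei had 874 to 909 against 1207 to 1488 CPM.

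The next comparison asked how VAT differed from SAT at 24 months. Among the types fitted (adipocytes, FAPs, macrophages and endothelial nuclei), where Gas6, Pros1, Axl and Mertk passed the filter and Tyro3 did not, neither edgeR nor DESeq2 called a gene. In adipocytes, Gas6 was at 64.6 and 149 CPM in VAT against 39.4 and 64.3 CPM in SAT (log2 fold change 0.91 ± 0.37, edgeR adjusted p = 0.683). Mertk was at 112 and 134 CPM against 79.5 and 94.1 CPM (0.50 ± 0.27, adjusted p = 0.775) and Axl at 8.17 and 15.1 CPM against 2.81 and 3.59 CPM (1.64 ± 0.65, adjusted p = 0.667). All 3 had both VAT values above both SAT values, where 35.0% of all genes tested did not overlap between the depots. Pros1 overlapped, at 21.7 and 12.6 CPM in VAT against 19.7 and 27.0 CPM in SAT (log2 fold change -0.26 ± 0.40, edgeR adjusted p = 0.949). In VAT, Axl was at 7.61 and 5.35 CPM with the top doublet scores removed and at 10.9 and 38.7 CPM with looser filters. Without VAT library 2 the log2 fold changes were 0.34 for Gas6, 0.41 for Mertk and 1.35 for Axl. Of the 4 genes tested, 0 were called by edgeR or DESeq2 and 2 had an unadjusted p under 0.05, where 0.159% of 12597 genes were called. VAT library 2 rested on 136 adipocytes, with 59 Gas6 UMIs, and was the higher of the VAT pair for Gas6, Mertk and Axl. Its adipocytes also held more of the steroidogenic list (169 CPM against 4.22 and 3.59 CPM in SAT) and of the mesothelial list (68.1 CPM against 3.52 and 4.16 CPM). That part was not tested.

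In FAPs, VAT held 157 and 929 CPM of Gas6 against 92.3 and 127 CPM in SAT (log2 fold change 2.25 ± 0.97, edgeR adjusted p = 0.835). Without VAT library 2 it was 0.54, and without VAT library 1 it was 2.97 (edgeR adjusted p = 0.0334), where Pros1 was also called (-3.38, adjusted p = 0.00453). The higher value was again that of VAT library 2, whose FAPs had 4235 CPM of the 9 FAP markers against 12678 to 25245 CPM elsewhere and 1569 CPM of the 6 mesothelial markers against 0 to 240 CPM. The same FAPs had the lowest Pros1, 22.1 CPM, and Axl, 182 CPM, of the 6 libraries. Of 4 genes, 0 were called by edgeR or DESeq2 and 2, Gas6 and Mertk, had an unadjusted p under 0.05 in edgeR (background 0.0% of 8665 genes). Mertk in FAPs was at 45.9 and 129 CPM in VAT against 23.1 and 33.5 CPM in SAT. Its log2 fold change was 1.47 ± 0.64, and 0.65 without VAT library 2. Macrophages and endothelial nuclei had 0 of 4 genes called by either tool and 0 at an unadjusted p under 0.05, at backgrounds of 0.0258% and 0.0128%. In macrophages of VAT, Gas6 was at 468 and 283 CPM, Pros1 at 267 and 80.7 CPM, Mertk at 436 and 643 CPM and Axl at 115 and 336 CPM. The Axl and Pros1 of the VAT pair lay on either side of both SAT values, and without VAT library 2 the log2 fold change of Axl was -0.72 in place of 0.16 and that of Gas6 0.15 in place of -0.22. The resident share of macrophages was 51.6% and 13.5% in VAT. Macrophages of VAT library 2 also held 340 CPM of the steroidogenic list, against 3.30 to 23.1 CPM in the other libraries. The part of either was not tested. In endothelial nuclei of VAT, Gas6 was at 127 and 187 CPM, Pros1 at 182 and 114 CPM, Mertk at 190 and 58.5 CPM and Axl at 46.8 and 35.1 CPM. Their fitted log2 fold changes lay between -0.45 and 0.31, and between -0.71 and 0.60 without VAT library 2. Lymphatic nuclei were 23 of 186 endothelial nuclei in VAT library 1, 105 of 213 in VAT library 2 and 20 of 605 in SAT library 2. In VAT, Mertk was at 91.6 to 212 CPM in blood vascular and 0 to 19.2 CPM in lymphatic nuclei. The part of this makeup was not tested. Resident macrophages likewise had 0 of 4 by either tool and 0 at an unadjusted p under 0.05, at a background of 0.0% of 2344 genes.

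Over all nuclei, Axl was at 72.5 and 141 CPM in VAT against 24.9 and 33.5 CPM in SAT, without overlap, as for 26.7% of all genes (log2 fold change 1.83 ± 0.36, edgeR unadjusted p = 0.00223, adjusted p = 0.299). It was the 1 gene of the 5 with an unadjusted p under 0.05 and the 1 gene that DESeq2 called (adjusted p = 0.00512, where DESeq2 called 2.4% of all genes), and edgeR called 0 of the 5 and 0.0138% of 21729 genes. FAPs held most of the Axl UMIs in VAT library 1 and mesothelial nuclei in VAT library 2, as given above, and FAPs and mesothelial nuclei made up 15.6% and 25.9% of those libraries. Without VAT library 1 edgeR called Axl (2.06, adjusted p = 0.0287), and without VAT library 2 it called Tyro3 lower in VAT (-3.34, adjusted p = 0.0450). In FAPs alone Axl was at 501 and 182 CPM in VAT against 335 and 271 CPM in SAT, which overlapped. Mesothelial nuclei at either contrast, and epithelial nuclei between depots, had libraries with under 20 nuclei, and were fitted with looser filters only. With age, 0 of 5 genes were called in SAT nuclei named mesothelial by edgeR or DESeq2, with 0 at an unadjusted p under 0.05 (background 0.0% of 7305 genes). These SAT nuclei go against that name: the mesothelial list summed to 5.82 to 26.0 CPM in them and the epithelial list to 1312 to 1902 CPM. Between depots edgeR called Axl in nuclei named mesothelial, at 102 and 229 CPM in VAT against 10.4 and 33.3 CPM in SAT (3.03 ± 0.62, adjusted p = 0.0328, background 6.42%). DESeq2 called Axl and Tyro3 there (background 9.53%). In nuclei named epithelial both tools called Axl, at 98.4 and 152 CPM in VAT against 1.38 and 8.58 CPM in SAT (edgeR 4.52 ± 0.63, adjusted p = 7.28e-09, background 13.5%, and 7.56% in DESeq2). The nuclei that shared these names differed between depots in their markers: the mesothelial list summed to 3522 and 2448 CPM in VAT and to 26.0 and 13.3 CPM in SAT in the first, and the epithelial list to 197 and 1246 CPM in VAT and 3908 and 4371 CPM in SAT in the other, so these calls compare nuclei of different kinds.

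**Figure D5:**
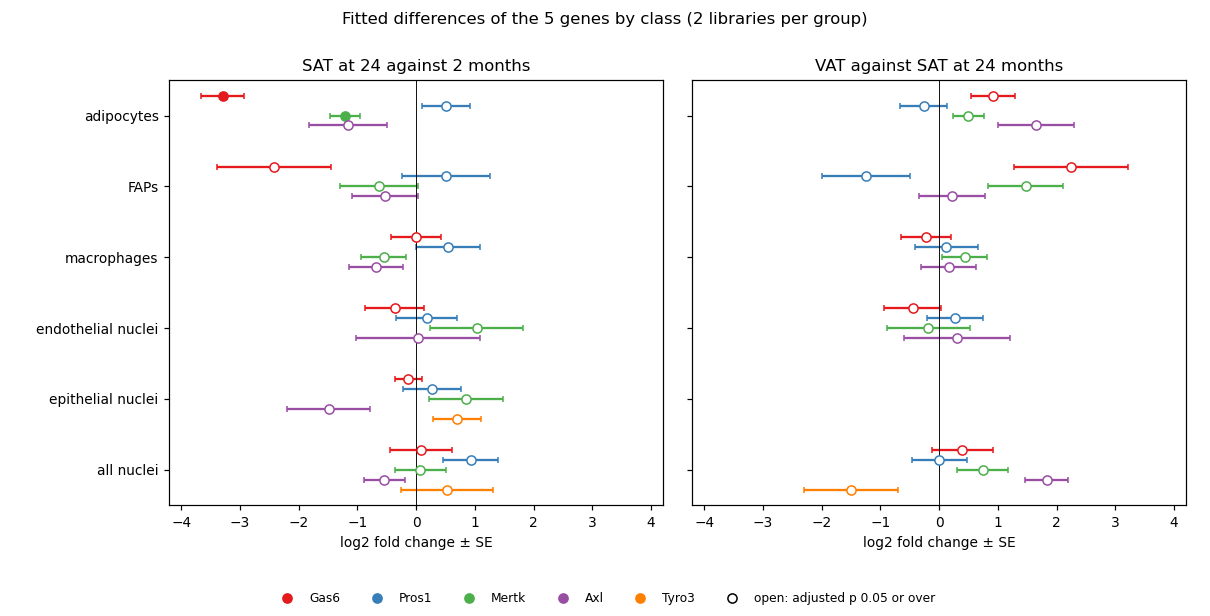
Log2 fold change ± SE (x axis) of each gene in 6 classes (y axis) from edgeR with 2 libraries per group, SAT at 24 against 2 months on the left and VAT against SAT at 24 months on the right. Filled points, adjusted p under 0.05, are only Gas6 (-3.29) and Mertk (-1.21) in adipocytes with age.

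Around the TAM genes, 33 genes of the same route were followed from a fixed list. In adipocytes with age 27 of them were tested, of which 2 were called higher and 3 lower, beside 6.45% and 7.58% of all genes. Their median log2 fold change was 0.09. Among the other phosphatidylserine bridges and receptors, 1 of 8 tested was higher and 1 lower. Mfge8, a secreted bridge to integrins, rose from 37.5 and 35.9 CPM to 78.1 and 128 CPM (log2 fold change 1.64 ± 0.33, edgeR adjusted p = 0.00774). Lrp1, an endocytic receptor that also acts in engulfment, fell from 1183 and 1437 CPM to 395 and 363 CPM (-1.64 ± 0.27, edgeR adjusted p = 0.00301). VAT held 27.2 and 50.5 CPM of Mfge8 and 369 and 305 CPM of Lrp1.

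Of the engulfment machinery 1 of 6 was called, Ptk2 (focal adhesion kinase), at 59.9 and 81.7 CPM against 120 and 119 CPM (log2 fold change 0.92 ± 0.26, edgeR adjusted p = 0.0360). Of the signalling genes, Vav1, a signalling protein of blood cells, fell and was at 20.6 and 53.2 CPM against 3.52 and 2.65 CPM (-3.45 ± 0.64, edgeR adjusted p = 0.00527). The immune markers given above moved with Vav1 in these nuclei. Without SAT library 2 of 2 months, Vav1 (-2.57, edgeR adjusted p = 0.134), Lrp1 (-1.42, adjusted p = 0.0549) and Mfge8 (1.68, adjusted p = 0.0625) were not called. Mfge8 was also not called without SAT library 1 of 2 months (1.72, adjusted p = 0.0603), and Ptk2 was called in 7 of 14 alternatives (0.75 to 1.22) and in none that left out a library. None of the vitamin K cycle genes (2 tested), the shedding proteases Adam10 and Adam17, or the other reported Mertk ligands (1 tested) was called. In epithelial nuclei 24 were tested, with 1 called higher and 1 lower beside 2.05% and 2.51% of all genes: Mfge8 was higher (1.00 ± 0.22, edgeR adjusted p = 0.00849) and Vav1 lower (-3.10 ± 0.75, adjusted p = 0.0155). Vav1 was called in 10 of 14 alternatives there, and not by DESeq2 (adjusted p = 0.230) or without SAT library 2 of 2 months (adjusted p = 0.147), SAT library 1 of 24 months (0.0603) or SAT library 2 of 24 months (0.0810). Mfge8 was called in 12 of 14, and not with looser filters (adjusted p = 0.198) or without SAT library 1 of 2 months (0.166). The immune markers in these nuclei summed to 478 and 638 CPM at 2 months and 169 and 162 CPM at 24 months, and their part was not tested. None of the list was called in FAPs, macrophages, resident macrophages, endothelial or all nuclei with age, or in any type between depots.

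The genes whose levels ran most like each member were found over 68 sums of 17 named types by library (2 of them the SAT nuclei named mesothelial), from 15441 genes, as Pearson's r of log2(CPM + 10). The sums share libraries, depth and types, so r is a description. For Gas6 the closest were Sorbs3 (r = 0.766), Lamp2 (0.759), a lysosomal membrane protein, and Tspan4 (0.756). For Pros1 they were Slco2b1 (0.781), Mill2 (0.778) and Dab2 (0.765), and for Axl they were Adam33 (0.823), Frmd4b (0.781) and Plau (0.740). For Mertk they were Igf1 (0.800), Apoe (0.779) and Gda (0.764), and for Tyro3 they were Elf3 (0.765), an epithelial transcription factor, Plch2 (0.761) and Gm10685 (0.755). The members were less like each other: Pros1 with Axl had 0.557, and Gas6 had 0.538 with Mertk, 0.527 with Axl and 0.511 with Pros1. Mertk had 0.525 with Axl and 0.474 with Pros1, and Tyro3 lay between -0.186 and 0.301 with the other 4.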

How the data were processed

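Nuclei were isolated from adipose tissue and libraries were made with the Singleron GEXSCOPE kit (the labels also name 10x Genomics) and sequenced on an Illumina instrument. The authors counted UMIs per gene and barcode with Celescope against GRCm39, and deposited raw counts. The versions and the annotation release are not given in the sources used here. Everything from there on was computed anew.

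A barcode was kept as a nucleus if it had more than 500 genes and 1000 UMIs and less than 15% of its UMIs from mitochondrial genes. Nuclei were clustered on 1000 variable genes, without the 5 genes and their pathway list, with 30 principal components, a Harmony-type correction by library and Leiden clustering at resolution 2.0 (scanpy 1.11.5, leidenalg 0.10.2, Python 3.11.15). A cluster was named where at least 3 fixed markers exceeded 2-fold and their mean log2 fold was at least 1.0. This naming rule was revised several times after clusters had been seen, and the genes and lists were chosen with earlier results of these data known. Scrublet called 36 of 27074 nuclei (0.133%), so its call was taken as not having worked, and doublets were kept in the results given.

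Counts were summed per library and class (at least 20 nuclei) and tested with edgeR 4.0.16 (quasi-likelihood, TMM scaling, its filter on low counts, 2-sided, all 3 groups in 1 design, R 4.3.3), with Benjamini-Hochberg adjustment over all genes tested and a threshold of 0.05. The difference between classes was tested as an interaction with the library as a block. Errors of fold changes are standard errors from the F statistic. Scripts were tested on simulated data. Intervals at the 95% level are exact and cover counting error only. DESeq2 1.42.0, library totals alone, no filter on low counts, 4 libraries alone, a replicate block, each library left out, looser filters (over 300 genes and 500 UMIs), no batch correction, resolution 1.0 and removal of doublets were the alternatives. Added after seeing the data were removal of the top 6% of doublet scores, leaving out 2 FAP sub-clusters, and the fit in resident macrophages. The 5 genes were always named, and of 33 pathway genes up to 4 called in each direction. The result of 1 pathway gene is not reported here. For each of the 5 with at least 200 UMIs, the 3 most alike genes were named. Promoter windows are the 250 bases before the outermost GENCODE M39 start of each protein-coding gene.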

Additional observations from a re-analysis of the deposited data

Results flagged for a closer look

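In 5 genes (1 of the 4 TAM genes and 4 of the 26 pathway genes tested), beside 3.75% of all 10616 genes, the age difference in SAT itself differed between adipocytes and macrophages by the interaction test (edgeR, adjusted over all genes tested, log2 change in adipocytes minus that in macrophages). Gas6 had -3.30 (adjusted p = 0.000182) and Vav1, a signalling protein of blood cells, had -2.70 (adjusted p = 0.00311). Lrp1, an endocytic receptor, had -1.63 (adjusted p = 0.0468). Ptk2, focal adhesion kinase, had 1.57 (adjusted p = 0.0421). Stab2, a scavenger receptor, had 2.66 (adjusted p = 0.0370), where its own log2 fold change was -0.01 ± 0.56 in adipocytes and -2.78 ± 0.64 in macrophages (edgeR adjusted p = 0.176). The direction held in 9 of 9 alternatives for each, and the call in 9 for Gas6, 7 for Vav1, 4 for Stab2 and 3 each for Lrp1 and Ptk2, where leaving out any single SAT library ended the call of Stab2, Lrp1 and Ptk2.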

How the results depend on the processing

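Gas6 in adipocytes with age was called in 14 of 14 alternatives (log2 fold change -3.58 to -2.96) and Mertk in 12 of 14 (-1.37 to -0.86), so the number of the genes called was 1 to 2 when each library was left out. The adipocyte against macrophage difference of Gas6 was called in 9 of 9 (-3.44 to -3.10). In FAPs, 1 gene, Gas6, was called without a filter on low counts with age (-2.43, adjusted p = 0.00404) and between depots (2.26, adjusted p = 0.0105), and leaving out each library gave 0 to 2 calls between depots. Over all nuclei between depots, 1 gene, Axl, was called by DESeq2 (1.87, adjusted p = 0.00512) and without a filter (1.84, adjusted p = 0.00982), and leaving out each library gave 0 to 1 calls. The cause was not tested. The other 193 counts of calls stayed within 1.5 times the count given, and no called value turned its direction. With library totals alone the median of all genes in adipocytes with age was -0.16, and 637 genes were higher and 1312 lower, in place of 812 and 955. A replicate block changed no call of the 5 genes and left 2 called in adipocytes with age (Gas6 -3.38, Mertk -1.20). Same-numbered libraries of 2 groups correlated in their deviations at -0.112, -0.00400 and 0.191 in adipocytes, with 1 of 3 over 0.1. Over all nuclei the values were -0.385, 0.258 and -0.530. SAT and VAT at 24 months, the groups that share mice, had the 0.191 and the -0.530. With 2 libraries per group, these values cannot decide whether the replicate numbers pair the libraries. Mesothelial nuclei, and epithelial nuclei between depots, were fitted with looser filters only. Few nuclei limit macrophages (75 in one SAT library) and FAPs (58), where a difference missed is not shown to be absent.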
